A study of Homo sapiens with 12 samples.

Results

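The genes described here code for subunits of the ATAC (Ada-two-A-containing) histone acetyltransferase complex, a chromatin-modifying complex unrelated to the chromatin accessibility assay of the same name. They were taken by symbol from the table of gene counts, which gave 10 genes of the 58735 listed: YEATS2, ZZZ3 (listed under the older symbol AC118549.1), KAT14, TADA2A, TADA3, KAT2A, KAT2B, SGF29, MBIP and DR1. The rule uses the symbol of a gene and not its measured values. RNA was sequenced from SW872, a human liposarcoma cell line, in 12 libraries that fall into 6 groups of 2. All of the cells carried a retroviral fusion gene, either TAZ-CAMTA1 (TC) or YAP-TFE3 (YT), and all carried a short hairpin RNA. The hairpin was non-targeting (shNT, the control) or directed against YEATS2 (shYEATS2) or ZZZ3 (shZZZ3), so the 6 groups are TC shNT, TC shYEATS2, TC shZZZ3, YT shNT, YT shYEATS2 and YT shZZZ3. The lines were selected pools with both constructs integrated, no group lacked a fusion, and a hairpin effect cannot be separated here from an effect of hairpin delivery beyond what shNT controls. The general methods for RNA sequencing describe lines with CAMTA1 as collected before confluence and other lines after it, for a list of constructs without hairpins, and do not say whether this covers the cells sequenced here. If it did, fusion and cell density cannot be told apart.

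Histone acetyltransferases attach acetyl groups to lysines of histone tails, a mark found at active promoters and enhancers. ATAC holds 2 acetyltransferases, KAT14 and either KAT2A (GCN5) or its paralog KAT2B (PCAF). KAT2A and KAT2B work with the adaptors TADA2A, TADA3 and SGF29, and of these KAT2A, KAT2B, TADA3 and SGF29 also serve the sister complex SAGA, whereas TADA2A is replaced there by TADA2B. YEATS2, ZZZ3 and MBIP belong to ATAC, and DR1, a histone-fold protein, also acts outside the complex as a repressor of transcription by RNA polymerase II. YEATS2 and ZZZ3 carry domains that bind histone H3 tails. The comparison of the other subunits with each knock-down asks whether the loss of transcript of 1 subunit was accompanied by changes in the transcripts of the rest.

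YEATS2 and ZZZ3 are the members that the hairpins were built against. The study lists 5 target sequences for each gene and the sources used here do not state which of them the sequenced cells carried, so all are shown, to locate the knock-downs on the transcripts. They were matched to GENCODE release 44 transcripts on the GRCh38 (hg38) assembly and are written 5′ to 3′ on the transcript strand. Capitals mark the bases of the second exon where a target spans a splice junction.
YEATS2 target 1: cgtcagagttcaagttcattt
YEATS2 target 2: cctaactacaaacagcaagaa
YEATS2 target 3: ccagtcagaaatctgttctat
YEATS2 target 4: gcgagctacgaacaatgctaA
YEATS2 target 5: ataacagcaatatggatatag
ZZZ3 target 1: tcaaagaacttggtcataaat
ZZZ3 target 2: ttcccgatctactcgtgttac
ZZZ3 target 3: cgcatcctgaagaaatctctt
ZZZ3 target 4: gcatcaGATGACGAAAGTATT
ZZZ3 target 5: gacgacagcaccctcttaata

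On a YEATS2 transcript of 31 exons, on the plus strand, target 1 lies in exon 8 (chr3:183736763-183736783), target 2 in exon 17 (chr3:183773706-183773726) and target 5 in exon 5 (chr3:183722063-183722083), all in the coding sequence. Target 4 spans the coding junction of exons 17 and 18 (chr3:183773775-183775915), and target 3 lies in the 3′ UTR in exon 31 (chr3:183811777-183811797). On a ZZZ3 transcript of 15 exons, on the minus strand, targets 2 and 3 lie in coding exon 5 (chr1:77633326-77633346 and chr1:77633234-77633254) and target 5 in coding exon 12 (chr1:77576187-77576207). Target 4 spans the coding junction of exons 12 and 13 (chr1:77568452-77576073), and target 1 lies in the 3′ UTR in exon 15 (chr1:77565309-77565329). Neither list is confined to the 3′ end of its transcript, and each includes 4 coding targets.

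Total counts ranged from 17451893 to 29294805 per library, and every member exceeded the minimum mean of 5 counts for testing, so all 10 were among the 18415 genes tested. Values are given as CPM, the count of a gene relative to the total of its library after trimmed-mean (TMM) scaling. The figure legend for the knock-downs calls the RNA sequencing of SW872 cells biological duplicates. The methods describe separate transductions and stable selection for biological triplicates. They do not say whether this covers the duplicates with hairpins, and the labels do not either. The p values therefore rest on the spread between these libraries. The libraries of TC shNT and of YT shZZZ3 differed most from each other: the median absolute log2 difference within the pair was 0.484 and 0.433 over 13232 well-counted genes, against 0.125 to 0.246 in the other groups. They also differed in the slope of expression on GC content (log2 CPM per 10 points of transcript GC), which was 0.33 and -0.24 in TC shNT and 0.17 and -0.29 in YT shZZZ3. Of 7 mesenchymal markers 7 passed the minimum, with VIM at 696 to 2150 CPM and FN1 at 2580 to 10500 CPM. Of 5 adipocyte markers, ADIPOQ and FABP4 reached at most 0.0516 and 0.296 CPM and PLIN1 1.55 CPM. The other adipocyte markers were higher, with LPL at 73.2 to 286 CPM and PPARG at 36.8 to 109 CPM. The summed level of 4 endothelial markers ranged from 40.6 to 266 CPM, that of 4 epithelial markers from 285 to 911 CPM and that of 4 leukocyte markers from 0.954 to 4.70 CPM. The epithelial sum came from KRT8 and KRT18, with EPCAM at most 1.91 and CDH1 at most 0.65 CPM, and PTPRC was at most 0.158 CPM. Some markers moved with the groups. In YT shZZZ3 the endothelial genes PECAM1 (3.08, edgeR adjusted p 2.42e-03) and CDH5 (1.93, edgeR adjusted p 0.0121) rose on the log2 scale against shNT, and TEK fell in TC shZZZ3 (-1.47, edgeR adjusted p 0.0426). Of the 7 mesenchymal markers 3 rose and 1 fell at an edgeR adjusted p under 0.05 in YT shYEATS2, where 20.7% of all genes were called. The same numbers held in YT shZZZ3, where 10.02% of all genes were called. VIM rose in YT shYEATS2 (1.47, edgeR adjusted p 1.30e-03) and YT shZZZ3 (1.37, edgeR adjusted p 4.16e-03). PDGFRB fell in YT shYEATS2 (-1.15, edgeR adjusted p 8.5e-03) and FN1 in YT shZZZ3 (-1.63, edgeR adjusted p 4.61e-03). In TC shZZZ3 0 rose and 2 fell (1.53% of all genes called), COL3A1 (-2.61, edgeR adjusted p 1.48e-03) and FN1 (-1.29, edgeR adjusted p 0.0465). In YT shYEATS2 the epithelial gene KRT8 fell (-1.82, edgeR adjusted p 0.043) and the leukocyte gene CD14, at most 4.13 CPM, rose (2.30, edgeR adjusted p 7.96e-03). Between the shNT groups, 4 of 7 mesenchymal markers were called lower in YT and 0 higher (9.23% of all genes called). TEK was also lower there (-1.29, edgeR adjusted p 0.0251). The TC shYEATS2 libraries differed from each other in KDR (12.8 and 133 CPM) and CDH5 (27.6 and 91.4 CPM). The part of these markers in the differences of the members was not tested. In bulk RNA a smaller number of cells with a transcript and less of that transcript per cell cannot be told apart.

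The abundance of the subunit transcripts was compared first, per kb of exon sequence, since longer transcripts collect more reads. TADA3 and KAT2A were the most abundant, with medians over the 12 libraries of 35.1 CPM per kb (range 21.1 to 46.1) and 29.96 CPM per kb (19.9 to 34.0). TADA3 exceeded KAT2A in 10 of 12 libraries, and KAT2A exceeded YEATS2, next in order, in 12 of 12. YEATS2 had a median of 11.3 CPM per kb, and its range of 3.31 to 13.5 includes the libraries with the hairpin against it. It exceeded KAT14 in the 8 libraries without shYEATS2 and in none (0) of the others. Below it the ranges of neighbouring genes overlapped. KAT14 had a median of 7.495 CPM per kb and exceeded SGF29 (6.92) in 7 of 12 libraries, SGF29 exceeded DR1 (5.08) in 8, DR1 exceeded KAT2B (4.77) in 8, and KAT2B exceeded MBIP (3.90) in 9. MBIP exceeded ZZZ3 (median 3.44, range 1.40 to 7.91) in 6 of 12 libraries, and TADA2A, the adaptor that distinguishes ATAC from SAGA, was lowest at 2.79 CPM per kb (1.94 to 3.21). With the length of the longest transcript in place of all exons the first 3 and last 2 places were the same, but SGF29 came before KAT14, and MBIP moved ahead of KAT2B and DR1, so the middle of the order depends on the length used.

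**Figure D1:**
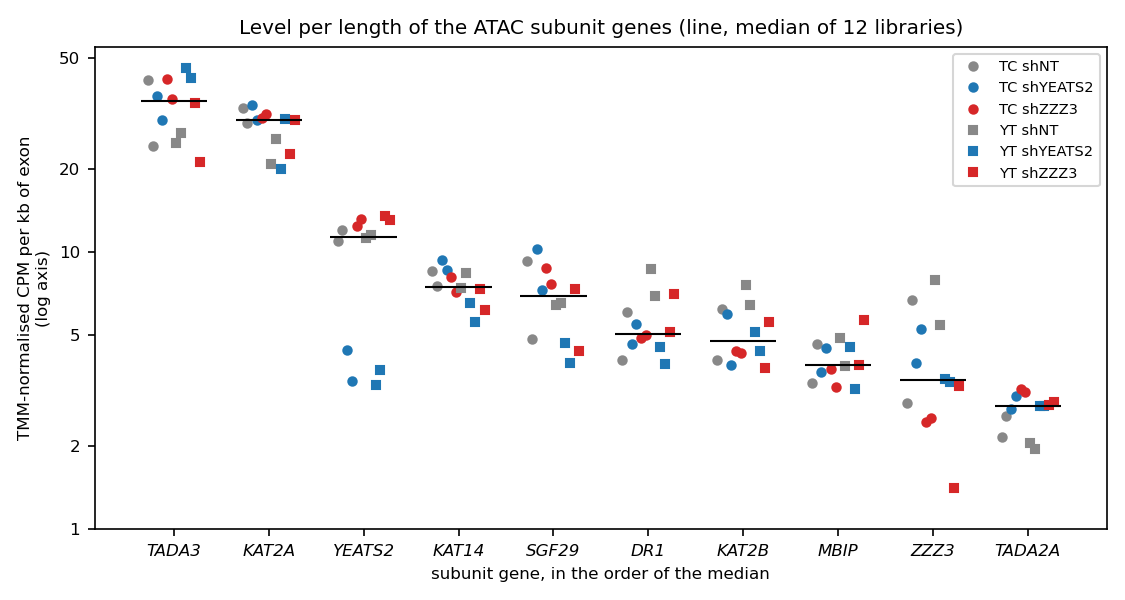
TMM-normalised CPM per kb of exon (log axis) of the 10 ATAC subunit genes, ordered by median, where each point is 1 of 12 libraries, coloured by hairpin and shaped by fusion (circles TC, squares YT), and each line is the median. TADA3 and KAT2A lie above the other genes, YEATS2 lies at the bottom of its range, down to 3.31 CPM per kb, in the 4 shYEATS2 libraries, and TADA2A is lowest with its shNT libraries at the bottom of its range.

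The knock-downs were compared next, each with shNT of the same fusion. By edgeR's quasi-likelihood test with Benjamini-Hochberg adjustment over all genes, 1 of 10 members was called (adjusted p under 0.05) in TC shYEATS2, where 0.0434% of all genes were called. In TC shZZZ3 0 of 10 were called, with 1.53% of all genes called. By the same test 2 members had an unadjusted p under 0.05 there (ZZZ3 and TADA2A), and DESeq2 called 0, against 2.89% of all genes. In YT shYEATS2 2 of 10 were called, against 20.7% of all genes. DESeq2 called 3 there, adding TADA3, against 23.9% of all genes. In YT shZZZ3 edgeR called 1 of 10, against 10.02% of all genes. The 4 calls were all falls: YEATS2 in both fusions with its own hairpin, ZZZ3 in YT with its own hairpin, and DR1 in YT shYEATS2. Apart from the hairpin targets, then, 1 member was called in 1 comparison, where 20.7% of all genes were called. The 2 of 10 called there include YEATS2, the target of that hairpin. The median log2 fold change of the 10 members was 0.02 in TC shYEATS2, -0.03 in TC shZZZ3, -0.47 in YT shYEATS2 and -0.01 in YT shZZZ3, where the medians of all genes tested lay between -0.01 and 0.01. The members' medians include the hairpin targets. The 2 knock-downs of a fusion share their control libraries.

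A looser description is whether the 2 libraries of a knock-down both lay above or both below the 2 controls. This held for 3 of 10 members in TC shYEATS2 (20.2% of all genes), 3 in TC shZZZ3 (36.6%), 8 in YT shYEATS2 (74.2%) and 5 in YT shZZZ3 (52.7%). Each of these counts is near its background. In YT shYEATS2, YEATS2, ZZZ3, KAT14, KAT2B, SGF29 and DR1 lay below the controls and TADA2A and TADA3 above, leaving KAT2A and MBIP with overlapping pairs.

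**Figure D2:**
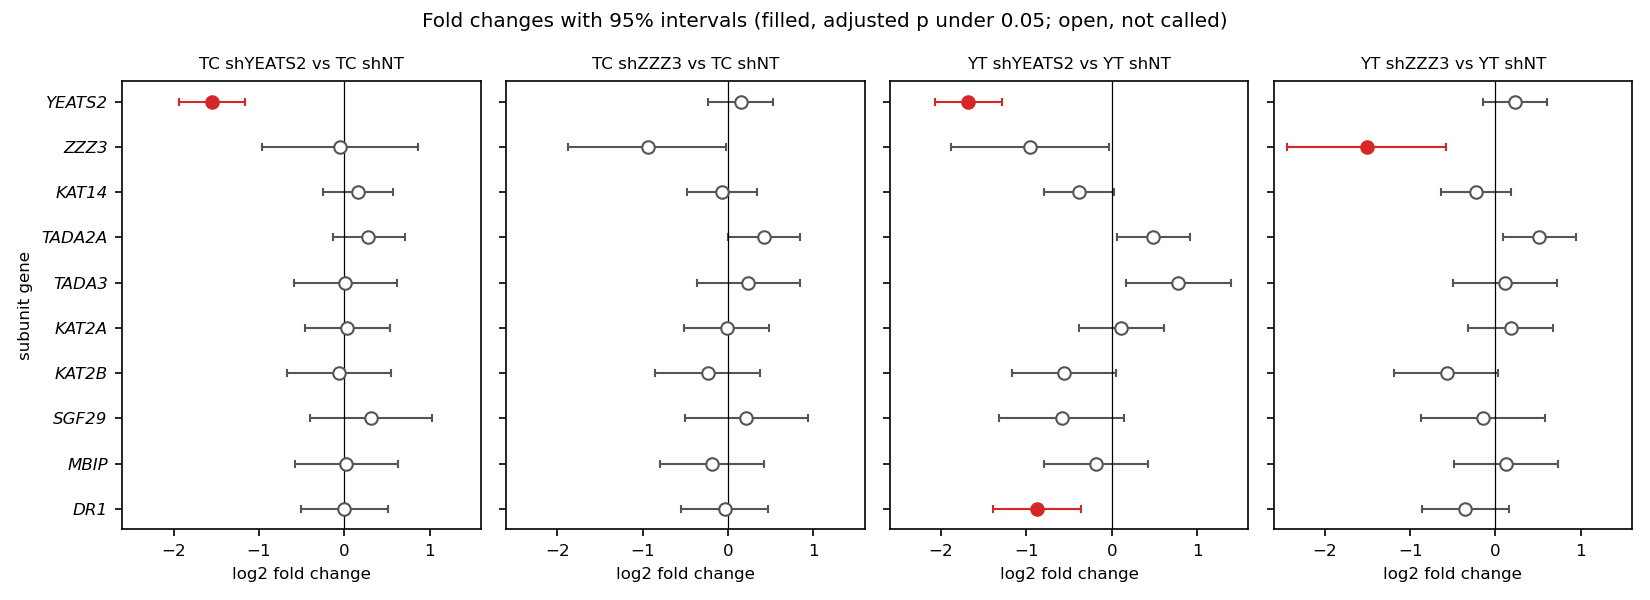
Log2 fold change of each ATAC subunit gene in the 4 knock-downs against shNT of the same fusion, with 95% intervals from the edgeR fit (2 libraries per group). Filled red points have an adjusted p under 0.05, which are YEATS2 with shYEATS2 in both fusions, ZZZ3 with shZZZ3 in YT and DR1 with shYEATS2 in YT.

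YEATS2 had 113 and 123 CPM in the TC shNT libraries and 45.5 and 35.1 CPM in TC shYEATS2, and 115 and 117 CPM in YT shNT against 33.9 and 38.5 CPM in YT shYEATS2. The knock-down left 34.2% of the control mean in TC and 31.2% in YT, with no overlap between the pairs. The log2 fold changes were -1.54 (95% interval -1.93 to -1.16, edgeR adjusted p 0.0138) and -1.68 (-2.07 to -1.29, edgeR adjusted p 1.04e-04). The fall in TC was no longer called when only the libraries of that comparison were fitted (-1.57, edgeR adjusted p 0.150). With the other hairpin YEATS2 was not lowered. It had 127 and 135 CPM in TC shZZZ3 and 138 and 134 CPM in YT shZZZ3, so these 4 libraries were the highest of the 12. The differences from shNT were small and uncalled, at 0.15 (interval -0.23 to 0.53, edgeR adjusted p 0.889) in TC and 0.23 (-0.15 to 0.61, edgeR adjusted p 0.456) in YT.

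ZZZ3, the partner whose zinc-finger domain reads the H3 tail, varied far more between libraries of a pair. It had 25.6 and 60.4 CPM in TC shNT and 21.9 and 22.7 CPM in TC shZZZ3, so a single control library lay well above the knock-down and the other only just. In YT it had 71.2 and 49.1 CPM in shNT and 12.6 and 29.6 CPM in shZZZ3. The remaining share of the control mean was 51.9% in TC and 35.1% in YT, and the log2 fold changes were -0.94 (interval -1.87 to -0.02, edgeR adjusted p 0.450) and -1.51 (-2.45 to -0.58, edgeR adjusted p 0.0453). In TC the value was -1.45 without TC shNT replicate 1 and -0.22 without replicate 2. In YT it ranged from -2.25 without YT shZZZ3 replicate 2 to -0.97 without replicate 1, and it was called only in the former of the 4 fits that leave out 1 library. The pair differences of ZZZ3, 1.24 in TC shNT and 1.22 in YT shZZZ3 on the log2 scale, were the largest of any member and fell in the groups whose libraries also differed in GC slope. At 37.65% GC ZZZ3 is the member lowest in GC. With a GC correction (each library's trend of expression on GC removed) the fold changes were -0.78 (edgeR adjusted p 0.0656) in TC and -1.39 (edgeR adjusted p 9.59e-04) in YT.

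ZZZ3 was also compared under the YEATS2 hairpin. In TC shYEATS2 it had 35.8 and 47.3 CPM, between the 2 controls, and the log2 fold change was -0.05 (interval -0.96 to 0.86). In YT shYEATS2 it had 31.4 and 30.7 CPM, below both controls, at 51.6% of their mean. This difference of -0.95 did not pass in the fit of all groups (edgeR adjusted p 0.130), and with the GC correction it was -0.49 (edgeR adjusted p 0.0909). It passed when the YT shYEATS2 and YT shNT libraries were fitted alone (edgeR adjusted p 6.59e-04), a fit that called 47.3% of all genes. It also passed with no filter on low counts, where 14.8% of all genes were called. With 1 of these libraries left out the difference ranged from -1.19 to -0.66.

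Among the adaptors, TADA2A showed the same order in every comparison. TADA2A bridges the acetyltransferase to the rest of ATAC. It had 12.1 and 14.4 CPM in TC shNT, 15.3 and 17.1 CPM in TC shYEATS2 and 18.1 and 17.6 CPM in TC shZZZ3. In YT it had 11.5 and 10.9 CPM in shNT, 15.73 and 15.69 CPM in shYEATS2 and 15.9 and 16.2 CPM in shZZZ3. The 4 shNT libraries were thus the 4 lowest of the 12 and all 8 knock-down libraries lay above them. How many of all genes show such an order was not counted. In single knock-downs the pairs did not overlap for 20.2% to 74.2% of all genes, and the knock-downs of a fusion share their controls. The log2 differences were 0.28 (interval -0.14 to 0.71), 0.43 (0.01 to 0.85), 0.48 (0.06 to 0.91) and 0.51 (0.09 to 0.94) in TC shYEATS2, TC shZZZ3, YT shYEATS2 and YT shZZZ3. None passed over all genes in edgeR, with adjusted p values of 1, 0.454, 0.0995 and 0.125. With the GC correction both YT differences were called, at 0.59 (edgeR adjusted p 6.59e-03) and 0.57 (0.0117), and the TC differences were not, at 0.28 (0.607) and 0.39 (0.147). Over all genes that correction called 31.1% in YT shYEATS2 and 20.7% in YT shZZZ3.

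TADA3, an adaptor of both ATAC and SAGA, had 172 and 99.96 CPM in TC shNT, 150.4 and 124 CPM in TC shYEATS2 and 174 and 147 CPM in TC shZZZ3. The YT controls had 102 and 111 CPM, and the YT shYEATS2 libraries lay above both at 190.4 and 175 CPM. The log2 difference of 0.78 (interval 0.17 to 1.39) missed the threshold in edgeR (adjusted p 0.0682) and passed in DESeq2 (adjusted p 0.0325) and with the GC correction (0.55, edgeR adjusted p 0.0119). In YT shZZZ3 the libraries, at 143 and 87.2 CPM, lay on either side of the controls. TADA3 overlaps OGG1 by 356 bases and ARPC4 by 211 bases of exon on the opposite strand, and the handling of strand in the counting is not stated, so part of its counts may belong to those genes. SGF29, which binds methylated H3, had 13.7 and 13.9 CPM in the YT controls and 9.95 and 8.41 CPM with shYEATS2. This difference of -0.58 (interval -1.32 to 0.15, edgeR adjusted p 0.234) was called with the GC correction (-0.84, edgeR adjusted p 6.55e-03). In the other groups SGF29 ranged from 9.30 to 21.7 CPM, and its pairs overlapped with the controls in the other 3 knock-downs.

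Of the acetyltransferases, KAT14, the catalytic subunit found in ATAC and not in SAGA, had 42.8 and 37.9 CPM in TC shNT and 46.8 and 43.3 CPM in TC shYEATS2, just above. In YT it had 37.3 and 42.0 CPM in shNT and 32.8 and 28.03 CPM in shYEATS2, below both. The differences were 0.16 (interval -0.25 to 0.57, edgeR adjusted p 1) and -0.38 (-0.79 to 0.03, edgeR adjusted p 0.169), and the latter was called with the GC correction (-0.46, edgeR adjusted p 0.0109). With shZZZ3 KAT14 had 40.9 and 36.1 CPM in TC, overlapping the controls, and 36.9 and 30.9 CPM in YT, below them (-0.23, edgeR adjusted p 0.499). KAT14 shares 901 bases of exon on the same strand with PET117, which had 22 to 68 counts per library.

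KAT2A and KAT2B are paralogs that take the same place in the complex. KAT2A had 125 and 109.9 CPM in TC shNT, 128 and 113 CPM in TC shYEATS2 and 115 and 118 CPM in TC shZZZ3. In YT it had 78.4 and 96.9 CPM in shNT, 75.2 and 114 CPM in shYEATS2 and 85.0 and 113 CPM in shZZZ3. Its pairs overlapped with the controls in all 4 knock-downs. The log2 differences lay between -0.01 and 0.18, and their 95% intervals reached up to 0.68. KAT2B, the less abundant paralog, had 39.5 and 33.6 CPM in YT shNT, above every other library of that fusion. It had 26.8 and 22.8 CPM in YT shYEATS2 (-0.56, interval -1.17 to 0.05, edgeR adjusted p 0.176) and 19.9 and 29.2 CPM in YT shZZZ3 (-0.57, -1.19 to 0.04, edgeR adjusted p 0.232). In TC its pairs overlapped, at 21.3 and 32.4 CPM in shNT, 31.1 and 20.4 CPM in shYEATS2 and 22.9 and 22.5 CPM in shZZZ3. Per kb, KAT2A exceeded KAT2B in every library, by 4.68 to 8.13 times in the TC libraries and by 2.74 to 6.91 times in the YT libraries. The smallest ratios were those of the YT shNT libraries and YT shYEATS2 replicate 1, at 2.74, 3.98 and 3.88 times.

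MBIP, a subunit that also binds and inhibits the kinase MAP3K12, stayed within 10.9 to 19.4 CPM in all libraries, and its pairs overlapped with the controls in all 4 knock-downs. DR1, the histone-fold subunit, had 94.5 and 75.8 CPM in the YT controls and 49.7 and 43.0 CPM with shYEATS2, 54.5% of the control mean and without overlap. The fall of -0.88 (interval -1.39 to -0.36) was called (edgeR adjusted p 0.0223). It was smaller but still called with the GC correction (-0.44, edgeR adjusted p 0.0123), and it was not called in any of the 4 fits without 1 of these libraries, where it ranged from -1.02 to -0.71 and the edgeR adjusted p from 0.0578 to 0.184. In YT shZZZ3 DR1 had 56.3 and 76.8 CPM, overlapping the controls (-0.36, edgeR adjusted p 0.386). In TC it had 44.7 and 66.3 CPM in shNT, 50.9 and 60.3 CPM in shYEATS2 and 53.3 and 54.6 CPM in shZZZ3, with differences of 0.00 (interval -0.51 to 0.51) and -0.04 (-0.55 to 0.47).

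**Figure D3:**
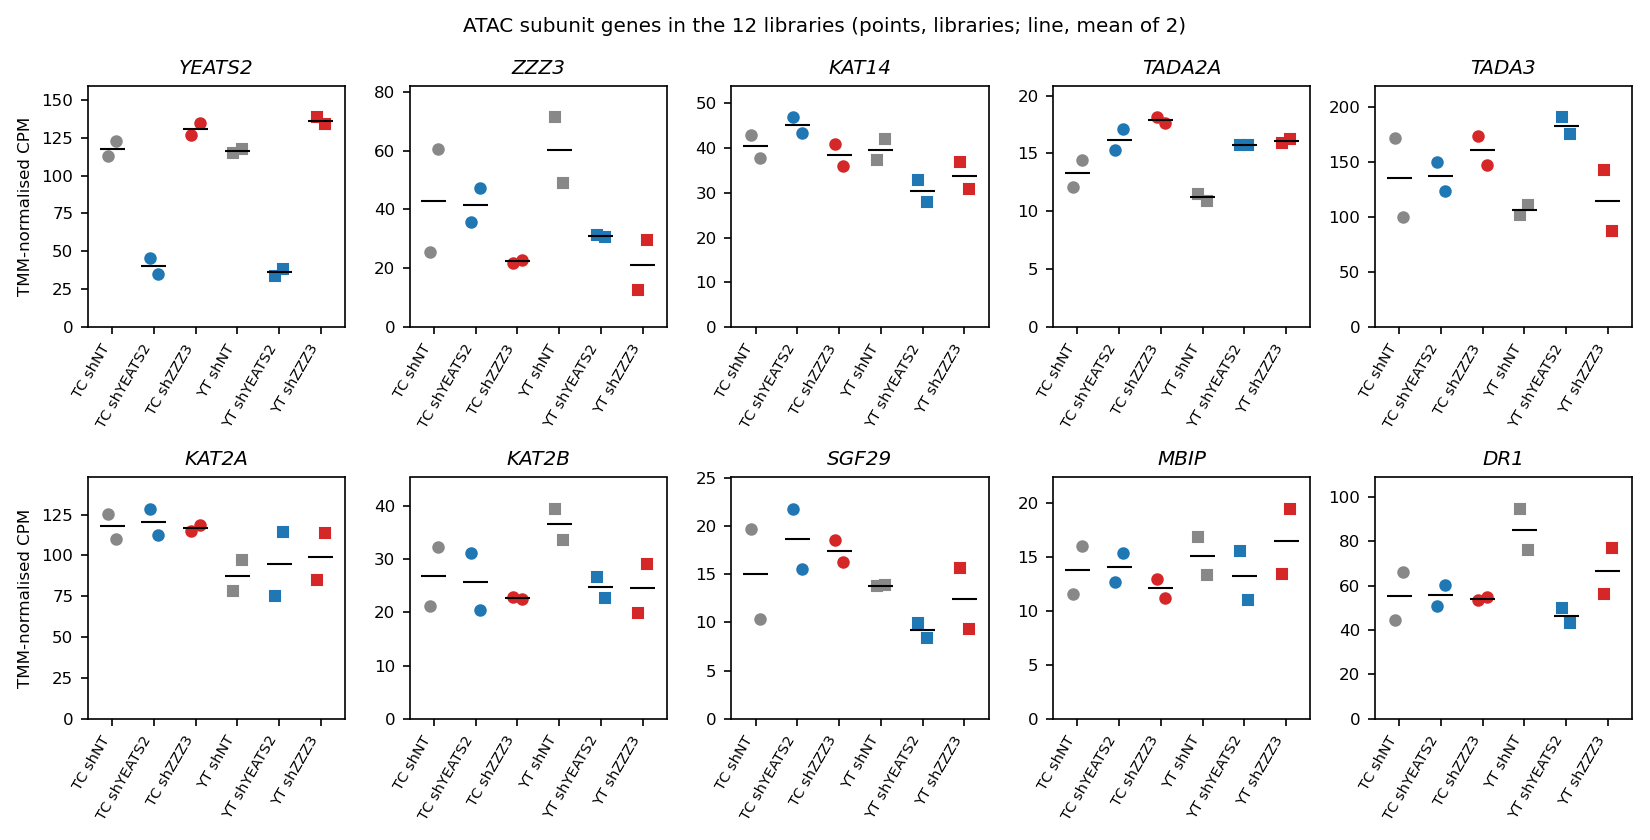
TMM-normalised CPM of each ATAC subunit gene in the 12 libraries (points, with the axis of each panel starting at 0), by group, with the mean of 2 libraries as a line. YEATS2 separates the shYEATS2 libraries from all others, ZZZ3 shows wide pairs in TC shNT and YT shZZZ3, and TADA2A lies lowest in the 4 shNT libraries.

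Whether a hairpin acted differently in the 2 fusions was tested as an interaction (the YT effect minus the TC effect). For the YEATS2 hairpin 0 of 10 members were called, against 9.37% of all genes, and DR1 alone had an unadjusted p under 0.05 in edgeR. DESeq2 also called 0, against 12.2% of all genes. The effect on YEATS2 itself differed by -0.13 (interval -0.67 to 0.40, edgeR adjusted p 0.781). The differences were -0.88 for DR1 (interval -1.60 to -0.16, edgeR adjusted p 0.128), -0.54 for KAT14 (-1.12 to 0.04, edgeR adjusted p 0.237), -0.89 for SGF29 (-1.93 to 0.13, edgeR adjusted p 0.271) and 0.77 for TADA3 (-0.09 to 1.63, edgeR adjusted p 0.258). The largest in size was that of ZZZ3, at -0.91 (interval -2.20 to 0.39, edgeR adjusted p 0.385). The rest were -0.50 for KAT2B, -0.21 for MBIP, 0.20 for TADA2A and 0.08 for KAT2A. With the GC correction DR1 (-0.49, edgeR adjusted p 0.0489), KAT14 (-0.59, edgeR adjusted p 0.0270) and SGF29 (-1.17, edgeR adjusted p 0.0103) were called, where 19.6% of all genes were. Without TC shNT replicate 2, DR1 (-1.17, edgeR adjusted p 0.0296) and TADA3 (1.13, edgeR adjusted p 0.0338) were called. Without TC shNT replicate 1 they were -0.60 (edgeR adjusted p 0.300) and 0.35 (edgeR adjusted p 0.613). The value for SGF29 was -1.41 without TC shNT replicate 1 and -0.48 without replicate 2. For the ZZZ3 hairpin 0 of 10 were called, against 4.32% of all genes, and 0 had an unadjusted p under 0.05 in edgeR. DESeq2 called 0 there, against 6.92% of all genes. The difference for ZZZ3 was -0.57 (interval -1.87 to 0.73, edgeR adjusted p 0.717). It was -1.27 without YT shZZZ3 replicate 2 and -0.01 without replicate 1, and -0.03 without TC shNT replicate 1 and -1.25 without replicate 2.

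Between the fusions under the control hairpin, 0 of 10 members were called by edgeR, against 9.23% of all genes. There 1 had an unadjusted p under 0.05 in edgeR, and DESeq2 called 0, against 12.2% of all genes. The pairs did not overlap for 4 members (51.3% of all genes). DR1 and KAT2B were higher in both YT shNT libraries, by 0.62 (interval 0.11 to 1.13, edgeR adjusted p 0.131) and 0.45 (-0.16 to 1.06, edgeR adjusted p 0.362), and KAT2A and TADA2A were lower, by -0.43 (-0.92 to 0.07, edgeR adjusted p 0.283) and -0.24 (-0.67 to 0.18, edgeR adjusted p 0.488). DR1 was called without TC shNT replicate 2 (0.90, edgeR adjusted p 0.0318) and was 0.33 (edgeR adjusted p 0.526) without replicate 1. KAT2B was 0.15 higher without TC shNT replicate 1 and 0.75 higher without replicate 2. YEATS2 differed by -0.02 (interval -0.40 to 0.36), so the level of this hairpin target before knock-down was within that interval of equal in both fusions.

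The hairpins were also compared with each other within a fusion. Between TC shYEATS2 and TC shZZZ3, 1 of 10 members was called (1.2% of all genes), which was YEATS2 at -1.69 (interval -2.09 to -1.31, edgeR adjusted p 1.12e-03). Between YT shYEATS2 and YT shZZZ3, 1 of 10 was called (7.21% of all genes), again YEATS2, at -1.91 (-2.30 to -1.52, edgeR adjusted p 1.58e-04). ZZZ3 was higher with shYEATS2 than with shZZZ3 by 0.89 in TC (interval -0.03 to 1.82, edgeR adjusted p 0.528) and by 0.56 in YT (-0.37 to 1.48, edgeR adjusted p 0.504). Both differences were called with the GC correction, at 0.87 (edgeR adjusted p 0.0449) and 0.90 (edgeR adjusted p 0.0138). The YT value was 0.03 without YT shZZZ3 replicate 1 and 1.31 without replicate 2.

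Several members moved with the GC slope of the libraries as well as with the groups. Across the 12 libraries the log2 CPM of DR1 (37.92% GC in its longest transcript) had a Pearson correlation of -0.836 with the slope, MBIP (37.74% GC) of -0.787, KAT2B (41.16% GC) of -0.686 and ZZZ3 of -0.624. For TADA3 (56.26% GC) it was 0.834 and for SGF29 (58.58% GC) 0.568. The remaining values were smaller in size, at 0.304 for KAT2A, 0.281 for KAT14, 0.147 for TADA2A and -0.233 for YEATS2. These values are descriptions over 12 libraries that also differ in fusion and hairpin, and the slope itself was -0.22 and -0.12 in the YT controls and 0.00 and 0.11 with shYEATS2 in YT. In YT shYEATS2 the GC correction brought the differences of DR1, ZZZ3, KAT2B (to -0.29) and TADA3 nearer to 0, and moved those of YEATS2 (to -1.79), TADA2A, KAT14 and SGF29 further from it.

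**Figure D4:**
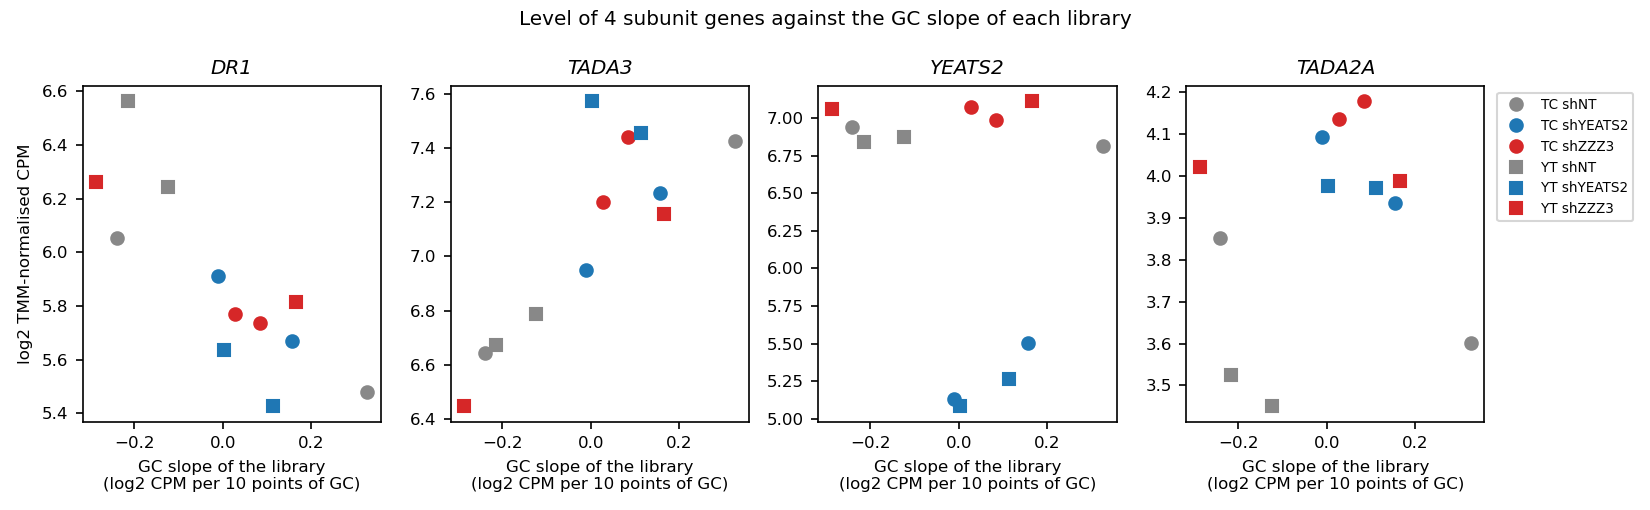
Log2 TMM-normalised CPM of DR1, TADA3, YEATS2 and TADA2A against the GC slope of the same library (log2 CPM per 10 points of transcript GC), with 1 point per library, coloured by hairpin and shaped by fusion. DR1 falls (r -0.836) and TADA3 climbs (r 0.834) along the slope, whereas YEATS2 separates by hairpin and TADA2A has its 4 shNT libraries lowest at both ends of the slope.

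Genes that work beside ATAC were counted from 4 lists. Of 5 other partners (WDR5, POLE3, POLE4, MAP3K7 and DRAP1) and of 3 other genes with a YEATS domain (MLLT1, MLLT3 and YEATS4), 0 were called in any of the 4 knock-downs by edgeR. The shares of all genes called were 0.0434% in TC shYEATS2, 1.53% in TC shZZZ3, 20.7% in YT shYEATS2 and 10.02% in YT shZZZ3. Of 18 subunits of SAGA 2 were called, both in YT shYEATS2, where 20.7% of all genes were called. SUPT20H, a structural subunit, fell from 62.5 and 60.2 CPM to 39.7 and 33.1 CPM (-0.75, edgeR adjusted p 0.0240). ATXN7L3, which belongs to the deubiquitinase module, rose from 95.9 and 109.4 CPM to 179 and 181 CPM (0.81, edgeR adjusted p 0.0250). Of 8 other acetyltransferases 2 were called in YT shYEATS2, with the same 20.7% of all genes called. KAT6A fell from 126 and 125 CPM to 72.2 and 72.9 CPM (-0.79, edgeR adjusted p 0.0211) and CREBBP from 103 and 93.2 CPM to 62.5 and 69.2 CPM (-0.57, edgeR adjusted p 0.0280). In YT shZZZ3 their differences were -0.30 (edgeR adjusted p 0.414) and -0.37 (edgeR adjusted p 0.190). The median log2 fold change in YT shYEATS2 was -0.06 for the SAGA subunits and -0.14 for the other acetyltransferases. It was -0.47 for the ATAC subunits and -0.01 for all genes tested. The ATAC value includes YEATS2 itself (-1.68), the target of this hairpin, and the other lists hold no hairpin target.

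The genes whose log2 CPM followed a member most closely were sought over the same 12 libraries among 13257 genes whose mean count reached 50. For YEATS2 they included CCDC117 and CT45A1, with Pearson correlations of 0.896 and 0.876. For ZZZ3 they were PPIP5K2 (0.98), BORCS7 (0.954) and GSKIP (0.947), and for DR1 RAB3GAP2 (0.988), DHX36 (0.985) and PLS3 (0.982). CT45A1 belongs to a family of near-identical copies, so its counts are uncertain. The libraries share depth and GC slope across genes, and these correlations describe likeness only.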

How the data were processed

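The study made stranded poly(A) libraries from SW872 cells, sequenced paired ends and processed them with bcbio-nextgen on the hg38 assembly. The authors deposited raw counts per gene as whole numbers. HISAT2, Salmon and tximport are named in the methods, and which of them gave the counts, and how strand was handled, is not given in the sources used here. Column names matched the labels, and 0 of the per-library values differed from the combined table. The members and lists were chosen with earlier results of these data known.

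Counts were scaled by TMM and fitted in edgeR (version 4.0.16, R 4.3.3) with 6 groups as the factor, a quasi-likelihood test with robust estimation, a prior count of 2, and a minimum mean of 5 counts, which left 18415 genes. The residual degrees of freedom were 6 and the prior ones had a median of 5.38, and the common biological coefficient of variation was 0.205. Tests were two-sided and p values were adjusted by Benjamini-Hochberg over all genes tested. Intervals are 95% intervals from the same fit. Steps were tested on simulated data. Alternatives were DESeq2 (version 1.42.0), DESeq2 size factors, library totals, no filter, each contrast fitted alone, a replicate block, a GC correction by loess (span 0.5) on the GC of the longest GENCODE release 44 transcript, that correction with the block, and leaving out each library. From the related lists, genes are named that were called in a knock-down with pairs that did not overlap, at most 4 per list. Likeness was measured for YEATS2, ZZZ3 and DR1, with 3 genes each, of which 1 is not reported here. Pearson correlations over 12 libraries have no p.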

Additional observations from a re-analysis of the deposited data

Results flagged for a closer look

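KAT14 was singled out because its libraries moved in opposite ways with the YEATS2 hairpin: both TC shYEATS2 libraries lay above both TC shNT libraries, and both YT shYEATS2 libraries lay below both YT shNT libraries. Pairs did not overlap, in either direction, for 20.2% of all genes in TC shYEATS2 and 74.2% in YT shYEATS2. The log2 differences of KAT14 were 0.16 (interval -0.25 to 0.57) in TC and -0.38 (-0.79 to 0.03) in YT, both uncalled. The difference between the fusions, YT minus TC, was -0.54 on the log2 scale and did not pass in edgeR (adjusted p 0.237). It passed with the GC correction (-0.59, edgeR adjusted p 0.0270), and over all alternatives the adjusted p ranged from 0.0177 to 0.585. With 2 libraries a group, single libraries were not screened for distance from their group.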

How the results depend on the processing

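Of 33 fold changes of members, 32 kept their direction under every alternative and 14 also kept their side of the threshold. The exception was the difference of the YEATS2 fall between the fusions, which ranged from -0.28 to 0.0942 when 1 library was left out and was positive without TC shYEATS2 replicate 1. The 33 were chosen mainly because pairs did not overlap in a knock-down or between the shNT groups. Comparisons of the hairpin targets and selected interactions were added. Where pairs did not overlap, leaving out 1 library could hardly reverse a direction, so a kept direction was largely fixed by that choice. With all libraries, 225 of 264 alternative values kept direction and call. The numbers of members called were less stable. In TC shYEATS2 it was 1, and 0 when the contrast was fitted alone (0.0217% of all genes). In TC shZZZ3 it was 0, and 1 with no filter on low counts (2.26% of all genes) and with the replicate block plus GC correction (5.25%). In YT shYEATS2 it was 2, and it was 3 with library totals and with DESeq2, 4 with no filter (14.8% of all genes), 6 with the GC correction (31.1%) with or without the block (35.3% with it), 8 when fitted alone (47.3%), and 1 in each fit without a library (8.29% to 8.98%). In YT shZZZ3 it was 1, and it was 0 with library totals (10.1% of all genes) and when fitted alone (7.57%). It was 2 there with the GC correction without the block (20.7%) and with it (24.6%). In the interaction for the YEATS2 hairpin it was 0, and it was 3 with the GC correction (19.6% of all genes) and 4 with the block added (23.6%). Between the shNT groups it was 0, and it was 1 with the block plus GC correction (22.4% of all genes). Between the hairpins it was 1 in each fusion. In TC it was 2 with no filter (2.28% of all genes) and with the GC correction without the block (3.57%) or with it (5.04%). In YT it was 3 with the GC correction (16.1%) and 4 with the block added (19.8%). The cause of these changes was not tested.

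The replicate numbers were not taken as pairs, since the labels tie no batch to them and the column headers name the same lane for every library. A further reason comes from the difference between the libraries of a group, gene by gene, taken in the order of their numbers. Between groups compared directly, these differences correlated across genes from -0.438 to 0.428. The value was 0.898 for TC shNT with YT shZZZ3 and 0.461 for TC shZZZ3 with YT shZZZ3, which meet in the ZZZ3 interaction. With the replicate block alone 3 members were called in YT shYEATS2, against 25.3% of all genes. TADA3 was added, at 0.77 with an edgeR adjusted p of 0.0233. The other counts were those given in the report. Crossing the numbers was an alternative chosen after seeing the data. It called 0 members in YT shZZZ3 (7.74% of all genes) and 1 between the shNT groups (14.1%). With 1 library left in a group, that library is assumed to vary like the other groups. Intervals come from the spread within the 6 groups, and the part of depth in it was not tested.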

Other observations

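Levels of some subunits followed each other across the 12 libraries. KAT14, the acetyltransferase particular to ATAC, and SGF29, an adaptor shared with SAGA, had a Pearson correlation of 0.858 in log2 CPM. Their GC contents are 49.5% and 58.58%, and their correlations with the GC slope of the libraries were 0.281 and 0.568. DR1 and TADA3 ran opposite to each other (-0.88), and DR1 and MBIP together (0.721), as did KAT2B and ZZZ3 (0.745), and in these pairs both genes also moved with the GC slope. The libraries share fusion, hairpin and depth between genes, and no p is given.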
